A study of Homo sapiens with 16 samples.

Results

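The sites described here are the places in the genome of VCaP cells where, with the synthetic androgen R1881 (methyltrienolone), a high confidence ERG peak and a high confidence GABPα peak lay on the same DNA. A high confidence peak is an interval called by both peak callers of the study, MACS and SWEMBL. The shared sites were chosen by the measured peak calls: an ERG high confidence interval with R1881 was taken if it overlapped a GABPα high confidence interval with R1881 by at least 1 bp. The rule found 206 of 2229 ERG intervals, from 193 MACS peaks of ERG. They met 202 of the 5987 GABPα intervals, which also came from 193 MACS peaks of that factor. A further 897 ERG intervals overlapped a GABPα MACS peak that was not high confidence there, and 1126 overlapped no GABPα peak.

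ERG and GABPα are transcription factors of the ETS family, whose members share a DNA-binding domain and recognise DNA around a core GGAA. GABPα is made in nearly all cells and works with GABPβ, mostly at promoters of genes that every cell uses. ERG is normally found in endothelial and blood-forming cells, and in many prostate cancers it is made from the TMPRSS2-ERG fusion, in which the androgen-regulated TMPRSS2 promoter drives it. The androgen receptor itself binds DNA with such factors at many prostate enhancers.

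The series held 16 ChIP-seq samples, of which 10 had peak files and 6 were inputs with no peak file used here. VCaP is a prostate cancer line that carries the TMPRSS2-ERG fusion. It gave 1 sample for each of the 2 targets in each of 3 treatments: t0, which the labels do not explain, ethanol vehicle, and R1881 at 1 nM, the treated cells having first been kept for 48 h in charcoal-stripped serum. Jurkat is a T-cell leukaemia line, and for each target it had 2 replicates. The labels of the Jurkat samples name no treatment, while the protocol text, the same for all samples, describes R1881 and ethanol, so whether they received either is not known. Each line stands for 1 source of cells, and nothing in the labels says whether the Jurkat replicates were separate cultures. The antibody number that the labels give for ERG is one that the methods of the study assign to the androgen receptor, so the ERG samples are named by their labels throughout, and the part of this conflict in the results was not tested.

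The number of peaks in a sample bears on every share below. For ERG in VCaP cells the MACS files listed 23947 peaks after R1881, 19504 after vehicle and 6963 at t0, and the high confidence files 2229, 743 and 2 intervals. For GABPα, in the same order, they listed 15013, 14183 and 9531 peaks and 5987, 6365 and 2851 intervals. Jurkat cells had 7288 and 15229 MACS peaks of ERG and 21503 and 22108 of GABPα. Read numbers were not in these files, so depth is unknown, and a site without a peak in a sample may hold binding that was too weak to be called. With 1 VCaP sample per group there was no replicate check and no test between treatments. Intervals given below are 95% Wilson intervals, which cover counting over sites only.

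At most shared sites the overlap covered much of the shorter interval, with a lower quartile of 79.8%, while the rule asked for only 1 bp. Both intervals belong to the calls that chose the sites, and short intervals that overlap must have near centres, so this is a description. The overlap had a median of 108 bp and ran from 1 to 521 bp. At the median site the overlap covered 99.2% of the shorter interval, and at 99 of the 206 sites the shorter interval lay wholly inside the longer. The centres were a median of 39.25 bp apart, with a range from 1 to 308.5 bp, and 128 sites (62.1%) had centres within 50 bp. The shared ERG intervals had a median length of 161.5 bp (57 to 549 bp), beside 160 bp over all ERG intervals. They had a larger upper quartile, 241 bp beside 206 bp. The GABPα intervals they met were short, with a median of 149.5 bp beside 235 bp over all GABPα intervals.

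Near misses of the rule were few. The nearest GABPα interval was less than 100 bp away without touching at 13 further ERG intervals, from 100 to 200 bp away at 4, from 200 to 500 bp at 8 and from 500 to 1000 bp at 3. Most of the other ERG intervals, 1682, lay more than 50000 bp from any GABPα interval. Just inside the rule (build hg18 for all positions) was chr7:116525372-116525466, which overlapped its GABPα interval by 1 bp and had MACS scores of 373 for ERG and 385.5 for GABPα. The sites chr8:81882690-81882804 (scores 538 and 447) and chrX:11295873-11296051 (945 and 481) overlapped by 4 bp each. Just outside it were chr1:7953915-7954008, with 1 bp between the intervals and scores of 635 and 705, chr18:53967374-53967504, with 2 bp (305 and 884), and chr3:39856238-39856368, with 6 bp (1119.8 and 317).

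Shared sites were spread over 23 chromosomes. Chromosome 1 held 21, chromosome 3 held 17, and chromosomes 2 and 7 held 15 each. Over the chromosomes with a shared site, the part of the ERG intervals that were shared ran from 1.89% on chromosome 10 (2 of 106) to 19.4% on chromosome 13 (6 of 31). Chromosome 8 carried the most ERG intervals, 191, of which 10 (5.24%) were shared, and chromosome 17 carried 62, of which 11 (17.7%) were shared. Chromosome Y had 3 ERG intervals, of which 0 were shared. These are descriptions of small counts, with no test.

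The scores with R1881 belong to the calls that chose the sites and are given as a description. The MACS score of a peak is the −log10 of its p-value times 10, so it grows with enrichment and with depth. It is not scaled between samples. Strong peaks tie at 3100, the highest ERG score with R1881, while GABPα scores with R1881 reached 3233. The ERG score of the shared sites had a median of 497 (quartiles 298 and 788, range 68.3 to 3100), beside 399.9 over all ERG intervals, 482 at those with a weaker GABPα peak and 330 at those with none. For GABPα the median was 472 (quartiles 344 and 840.2, range 57.4 to 3100). The 202 GABPα intervals that took part had a median of 456, beside 1071.7 over all GABPα high confidence intervals. By these medians the shared sites stood in the upper part of the ERG distribution and the lower part of the GABPα high confidence distribution. By ERG score, 7.35% of the ERG intervals under 400 were shared, 8.92% of those from 400 to 800, 16.2% of those from 800 to 1600 and 30.3% of those at 1600 or more, the last being 10 of 33.

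Within the shared sites a high ERG score went only weakly with a high GABPα score. Pearson's r between the log2 scores was 0.259 and Spearman's rho 0.171 over 206 sites, which are not independent samples and come from 1 pair of libraries. The ties at 3100 were 3 for each factor, 2 of them the same sites, which are both intervals of 1 region on chromosome 1.

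**Figure D1:**
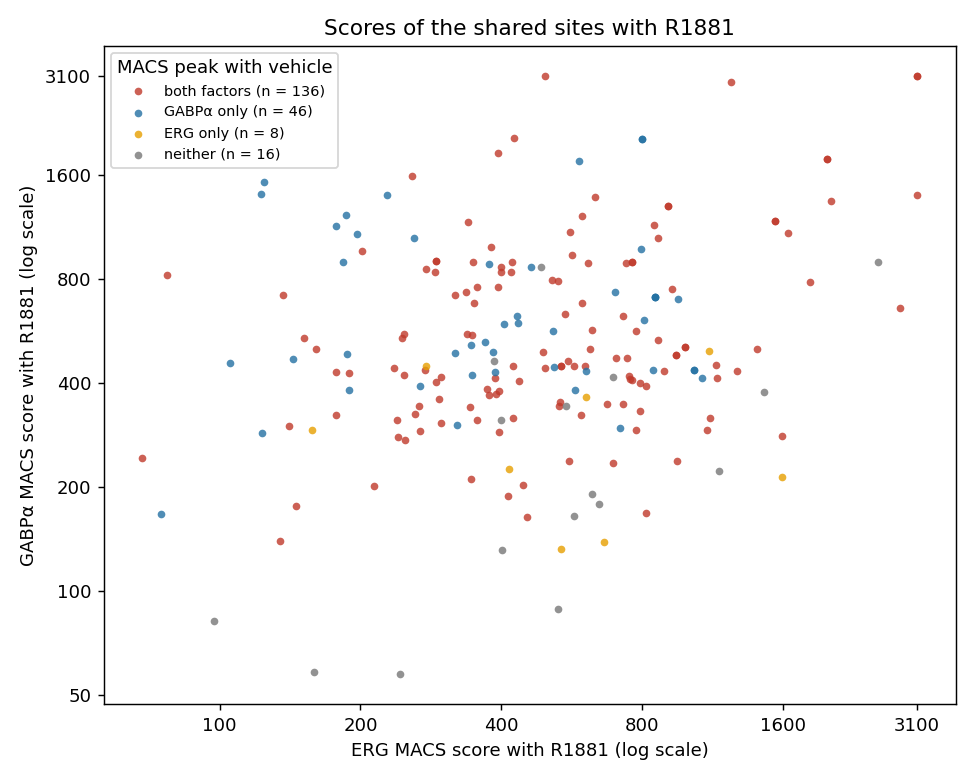
ERG (horizontal axis) and GABPα (vertical axis) MACS scores with R1881 at the 206 shared sites, both on log scales, with each point 1 site coloured by which factor had a MACS peak there with vehicle. The 136 sites with both factors with vehicle spread over the whole range of ERG scores and over GABPα scores from 139 to 3100. The 16 sites with neither mostly have GABPα scores under 472, the median.

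With vehicle, ERG was found at shared sites about as often as at ERG sites in general. An ERG MACS peak with vehicle overlapped 144 of the 206 sites, 69.9% (63.3 to 75.8%), against 69.3% of all 2229 ERG intervals. A high confidence ERG peak with vehicle overlapped 47 sites, 22.8% (17.6 to 29.0%), and the share over all ERG intervals was 22.8% as well. At t0 an ERG MACS peak overlapped 31 sites, 15.05% (10.8 to 20.6%), against 10.8%. No shared site had a high confidence ERG peak at t0, which by the limit of 3 counts allows a share of up to 1.46%, and over all ERG intervals the share was 0.0449%, 1 interval, in a file of only 2. The t0 scores that were present were low, with a median of 64.3 and a highest value of 284.

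Within ranges of the ERG score with R1881, shared sites and sites without GABPα had close shares below 800 and differed from 800 to 1600. Below 400 the sites with a weaker GABPα peak had the lowest share. Below 400, 55 of 82 shared sites (67.1%; 56.3 to 76.3%) had an ERG MACS peak with vehicle, as did 66.2% of ERG sites without GABPα and 55.0% of those with a weaker GABPα peak. From 400 to 800, 54 of 75 shared sites (72.0%; 61.0 to 80.9%) had one, beside 76.0% and 71.3%. From 800 to 1600 the shares were 26 of 39 (66.7%; 51.0 to 79.4%) and 89.2% (79.4 to 94.7%), with 81.6% at sites with a weaker GABPα peak. In this range the Wilson intervals of the shared sites and the 65 sites without GABPα barely failed to overlap, at 79.37 and 79.4%. Shared sites also had an ERG MACS peak with vehicle less often than sites without GABPα from 400 to 800 and at 1600 or more. There the Wilson intervals overlapped. In the last range the counts were 9 of 10 shared sites, 6 of 6 without GABPα and 17 of 17 with a weaker GABPα peak. High confidence ERG peaks with vehicle were less frequent at shared sites than at those without GABPα in each range below 1600. At 1600 or more they stood at 5 of 10 shared sites and 1 of 6 without GABPα. None of this was tested.

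GABPα with vehicle was called at most shared sites, much more often than at ERG sites in general. A GABPα MACS peak with vehicle overlapped 182 of 206, 88.3% (83.3 to 92.0%), and over all ERG intervals the share was 32.6%. A high confidence GABPα peak with vehicle overlapped 118, 57.3% (50.5 to 63.8%), against 6.82%. At t0 the counts were 102 for MACS, 49.5% (42.8 to 56.3%) against 6.91%, and 35 for high confidence, 17.0% (12.5 to 22.7%) against 1.57%. Since the sites were chosen for GABPα with R1881, these counts are set against all GABPα intervals next.

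Against that background GABPα was found less often at shared sites. Of the 202 GABPα intervals shared with ERG, 176 (87.1%; 81.8 to 91.1%) had a GABPα MACS peak with vehicle, beside 98.8% of all 5987. High confidence peaks with vehicle stood at 115 (56.9%; 50.0 to 63.6%), beside 91.0%. At t0 a MACS peak stood at 101 (50.0%; 43.2 to 56.8%), beside 75.7%, and a high confidence peak at 35 (17.3%; 12.7 to 23.1%), beside 45.7%. An ERG MACS peak with vehicle overlapped 143 of the 202, 70.8%, and only 5.93% of all GABPα intervals.

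**Figure D2:**
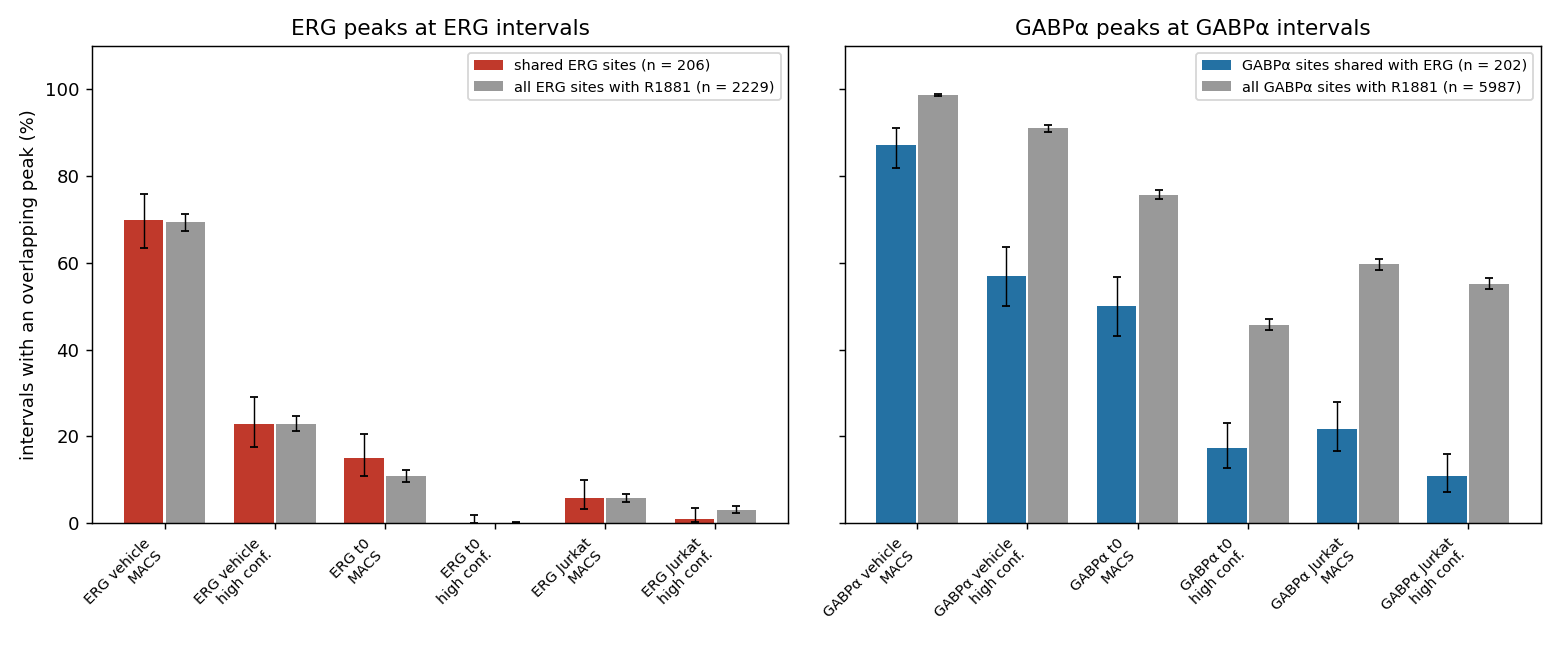
Share of intervals (vertical axis, percent) with an overlapping peak of the same factor in the samples that did not choose them, for ERG at the shared sites and all ERG intervals (left) and for GABPα at the GABPα intervals shared with ERG and all GABPα intervals (right). Bars are shares and error bars 95% Wilson intervals; with vehicle the ERG bars are alike (69.9 and 69.3% for MACS peaks), while each GABPα bar of the shared intervals is lower than that of all GABPα intervals.

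Because GABPα scores were lower at shared intervals, the same shares were taken within ranges of the GABPα score with R1881. Below 400, a GABPα high confidence peak with vehicle was found at 30 of 70 shared intervals, 42.9% (31.9 to 54.5%), and at 76.7% (74.1 to 79.1%) of the 1077 others. From 400 to 800 the shares were 45 of 81, 55.6% (44.7 to 65.9%), and 91.1%. From 800 to 1600 they were 32 of 42, 76.2% (61.5 to 86.5%), and 96.6%. In these 3 ranges the Wilson intervals of shared and other GABPα sites did not overlap. They cover counting over sites of single libraries only, so this is a description and no test. The ranges were cut on the R1881 score, which belongs to the calls that chose the sites.

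At t0 the shares of shared and other intervals were close in the lower ranges. Below 400, a high confidence GABPα peak at t0 stood at 4.29% of shared and 4.18% of other GABPα intervals. From 400 to 800 the shares were 16.0% (9.63 to 25.5%) and 17.4%, and from 800 to 1600 they were 33.3% (21.0 to 48.5%) and 53.4% (50.9 to 55.9%). Only the last pair had Wilson intervals that did not overlap. At 1600 or more just 9 shared intervals were left, and their shares with vehicle (88.9%) and at t0 (55.6%) came with wide intervals that met those of the others. MACS peaks at t0 were at 24.3 and 27.7% of shared and other intervals below 400, 56.8 and 62.7% from 400 to 800, 78.6 and 92.0% from 800 to 1600, and 55.6 and 99.0% at 1600 or more. For these the Wilson intervals did not overlap in the upper 2 ranges. As with vehicle, this is a description over sites of single libraries, with no test.

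**Figure D3:**
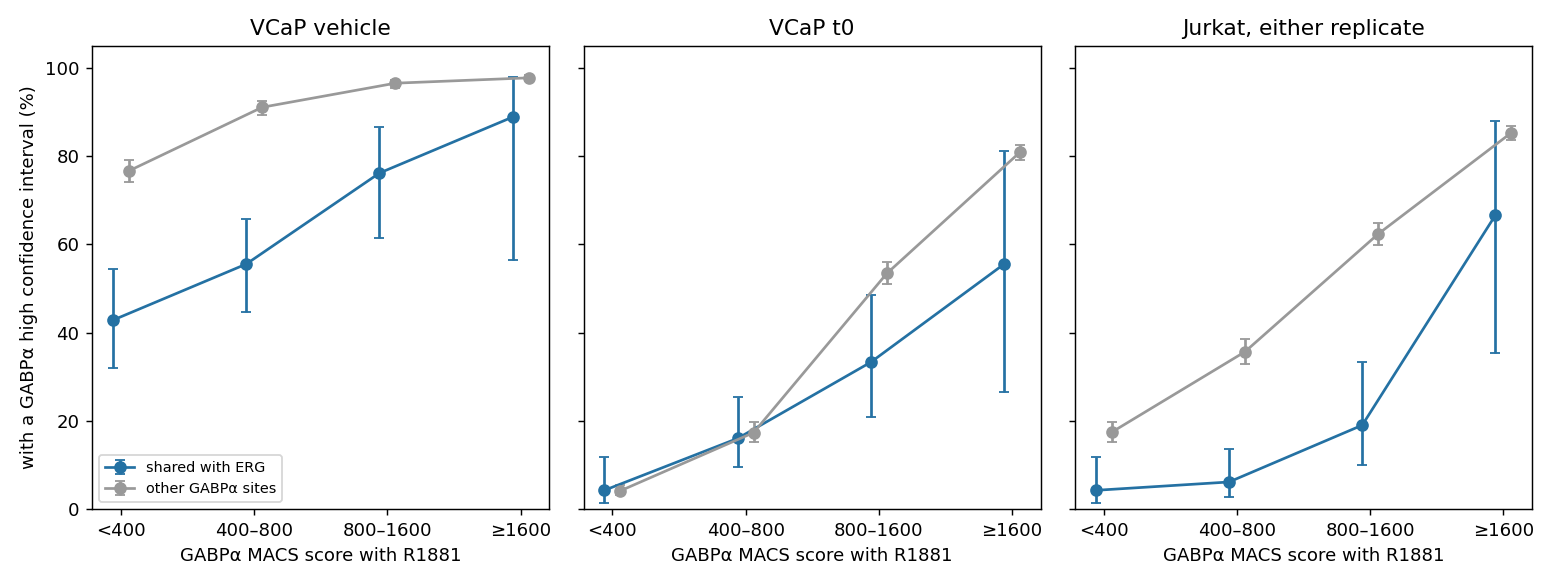
Share of GABPα intervals (vertical axis, percent) that overlap a GABPα high confidence interval with vehicle, at t0 or in either Jurkat replicate, by range of the GABPα MACS score with R1881 (horizontal axis), for the 202 intervals shared with ERG and the others. Points are shares and error bars 95% Wilson intervals; with vehicle and in Jurkat the shared intervals are lower in the first 3 ranges (42.9 against 76.7% with vehicle below 400), while at t0 the points nearly coincide below 800.

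Over both factors, 136 shared sites (66.0%; 59.3 to 72.1%) already had MACS peaks of both with vehicle. The share was 43.5% of the ERG intervals with a weaker GABPα peak and 27.9% of all ERG intervals. The shared sites were chosen for GABPα with R1881, so a higher joint share than over all ERG intervals follows in part from the rule. GABPα alone was present with vehicle at 46 sites (22.3%), ERG alone at 8 (3.88%), and neither at 16 (7.77%). Where 1 factor was missing with vehicle it was thus ERG far more often than GABPα. In high confidence peaks, 42 sites (20.4%; 15.4 to 26.4%) had both with vehicle, against 2.69% of all ERG intervals and 1.9% of those with a weaker GABPα peak, with the same limit. GABPα alone was high confidence at 76 (36.9%), ERG alone at 5 and neither at 83 (40.3%). With vehicle, GABPα had more high confidence intervals than ERG, 6365 against 743, but fewer MACS peaks, 14183 against 19504. The part of these numbers in either split was not tested.

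The states of the factors went together from sample to sample at shared sites, as with vehicle they also did at other ERG sites. Of the 144 sites with an ERG peak with vehicle, 98 (68.1%; 60.1 to 75.1%) had high confidence GABPα with vehicle and 89 (61.8%; 53.7 to 69.3%) had GABPα at t0. Of the 62 sites without ERG with vehicle, 20 (32.3%; 21.9 to 44.6%) and 13 (21.0%; 12.7 to 32.6%) did. Sites with GABPα at t0 carried ERG with vehicle in 89 of 102 cases (87.3%), and sites without it in 55 of 104 (52.9%). Median GABPα scores with R1881 were 719 and 409.5 at sites with and without GABPα at t0, but 468 and 479 at sites with and without ERG with vehicle.

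The shared sites of the vehicle samples overlapped those with R1881 in part. The deposited vehicle files gave 76 ERG intervals that overlapped a GABPα interval, 10.2% of 743. Of these 39 (51.3%) overlapped a shared site with R1881, and 42 of the 206 sites with R1881 (20.4%) overlapped one of them. The vehicle ERG file holds whole MACS peaks, which are wider than the R1881 intervals. Rebuilt from SWEMBL intervals in the layout of the R1881 file, the vehicle set had 73 shared sites of 800 (9.12%), of which 38 (52.1%) overlapped a site with R1881.

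Scores of both factors were higher with R1881 than with vehicle at most shared sites with a peak in both samples, and more so for ERG. The R1881 samples chose the sites, so this is a description. At 144 sites the ERG score had a median of 164 with vehicle and 529.9 with R1881. The median of the ratios was 2.97 (1.57 on the log2 scale), and 133 sites (92.4%) were higher with R1881, against 84.7% of all ERG intervals with both peaks, whose median ratio was 2.10. At 182 sites the GABPα score had a median of 351 with vehicle and 501 with R1881. The median ratio was 1.41 (0.49 on the log2 scale), and 134 sites (73.6%) were higher with R1881, against 50.7% of all GABPα intervals with both peaks, whose median ratio was 1.00.

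The higher GABPα ratio was present in each range of GABPα score with R1881, as a description. These ranges were cut on the R1881 score, which is also the numerator of the ratio and belongs to the calls that chose the sites. They are therefore no independent check, and a rise of a ratio with its own score is partly built in. Sites without a vehicle peak have no ratio and were left out. The median ratio of R1881 to vehicle was 1.23 at 50 shared intervals under 400 and 0.93 at the 1036 others. From 400 to 800 it was 1.68 at 77 shared and 1.00 at 1140 other intervals, and from 800 to 1600 it was 1.32 at 40 and 1.01 at 1542. At 1600 or more it was 1.27 at 9 and 1.01 at 2020. The ERG ratio did not keep 1 order over the ranges of ERG score. Below 400 it was 1.71 at shared sites, 1.87 at those with a weaker GABPα peak and 1.54 at those without one. From 400 to 800 it was 3.05, 2.50 and 2.09 in the same order, and from 800 to 1600 it was 4.18, 3.19 and 2.74. At 1600 or more, with 9, 17 and 6 sites, it was 6.18, 3.63 and 9.81.

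The ratios of both factors were high at many of the same sites. At the 136 shared sites with peaks of both factors in both treatments, the log2 ratios had a Pearson's r of 0.614 and a Spearman's rho of 0.576, as a description over sites of the same 4 libraries. ERG and GABPα were both higher with R1881 at 87 of them (64.0%), ERG was higher and GABPα lower at 36 (26.5%), ERG lower and GABPα higher at 5, and both lower at 6. Where the ERG ratio was 4 or more (41 sites) the median GABPα ratio was 1.87, where it lay from 2 to 4 (44 sites) it was 1.20, and below 2 (51 sites) it was 0.986. A like relation was seen at the 390 ERG sites with a weaker GABPα peak, with r of 0.544 and rho of 0.523, so it was seen outside the shared sites too.

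**Figure D4:**
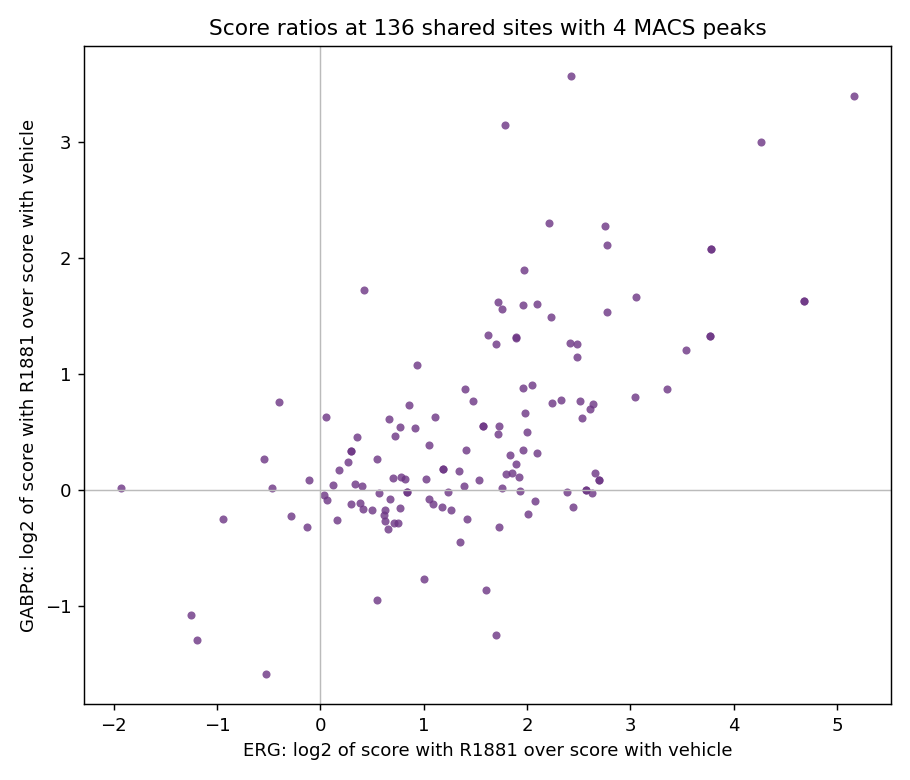
Log2 ratio of the MACS score with R1881 to that with vehicle for ERG (horizontal axis) and GABPα (vertical axis) at the 136 shared sites with a MACS peak of both factors in both treatments, each point 1 site, with grey lines at equal scores. Most points lie right of the vertical line, 87 lie above the horizontal line as well, and the GABPα ratios are higher toward the right.

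The strongest shared region was chr1:2176616-2177672, which held 2 ERG intervals. Its ERG scores were 3100 with R1881, 522 with vehicle and 98.8 at t0, and its GABPα scores were 3100, 3100 and 1422. GABPα was also at 3100 in both Jurkat replicates, where no ERG peak was called. It ranked first by the lower of its percentiles in both samples and tied with other regions at 3100 for each factor. Since that is the value at which scores tie, differences between its GABPα peaks at 3100 could not be read. Names of genes are not given for any region, since no annotation of hg18 was used here.

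Other regions with strong ERG differed in how much was present without R1881. At chr2:7386252-7386788 the ERG scores were 3100 with R1881, 814 with vehicle and 166 at t0, and the GABPα scores were 1402, 1412 and 368. At chr1:32740161-32740529 the ERG scores were 2852, 1751 and 284, the last being the highest t0 value of all shared sites, and the GABPα scores were 659.5, 613 and 119. Both regions had every VCaP peak and no Jurkat peak. The region chr13:108407737-108408144 went the other way, with ERG at 2031 with R1881, 56.6 with vehicle and no peak at t0, and GABPα at 1344, 128 and 113. Both factors thus had a score at least 10 times higher with R1881 than with vehicle at this region. The region chr12:120853984-120854263 had ERG at 2564 and GABPα at 897 with R1881 and no peak in any other sample.

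The regions with the highest GABPα scores with R1881 had high GABPα scores with vehicle too. This was not so at some regions with lower GABPα scores with R1881, such as chr13:108407737-108408144 above. At chr20:11083811-11084118 the GABPα scores were 2967 with R1881, 3153 with vehicle and 1313 at t0, and the ERG scores were 1244 and 1192, with no peak at t0. At chr13:99720274-99720365 GABPα was at 3100, 2905 and 828 and ERG at 496, 282 and 62.6, with a GABPα peak of 51.3 in 1 Jurkat replicate. At chr15:63949977-63950267 GABPα was at 2046 and 2160.2 with no peak at t0, and ERG at 425 and 205. The region chr7:133414364-133414663, of 2 intervals, had GABPα at 2039.6, 1605 and 706 in VCaP cells and at 549.95 and 559.5 in Jurkat cells, and ERG at 801 with R1881, no peak with vehicle and 51.1 at t0. In these 4 regions no ERG peak was called in Jurkat cells.

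When shared regions were joined by ERG MACS peak, 39 of 193 (20.2%) had high confidence peaks of both factors with vehicle. By ERG score with vehicle the leading 5 included chr1:32740161-32740529, chr20:11083811-11084118 and chr2:7386252-7386788, given above. The others were chr2:64484606-64484996, with ERG at 1543 with R1881, 861 with vehicle and 81.5 at t0 and GABPα at 1179, 1195 and 233, and chr20:21550871-21551006, with ERG at 636, 840.0 and 50.5 and GABPα at 1380.1 and 816 and no t0 peak. The last is a region where ERG scored higher with vehicle than with R1881 while GABPα scored lower with vehicle. High ERG at t0 was also seen at chr7:139015133-139015580, with ERG at 1594, 522 and 149.8 and GABPα only with R1881, at 214. Likewise chr3:183485434-183485670 had ERG at 1102, 433 and 125 and GABPα at 292, 398 and 71.8, and chr5:66580425-66580556 had ERG at 696, 474 and 122 and GABPα at 234, 451 and 129.5. In the last pair of regions GABPα scored higher with vehicle than with R1881, against the direction of ERG.

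**Figure D5:**
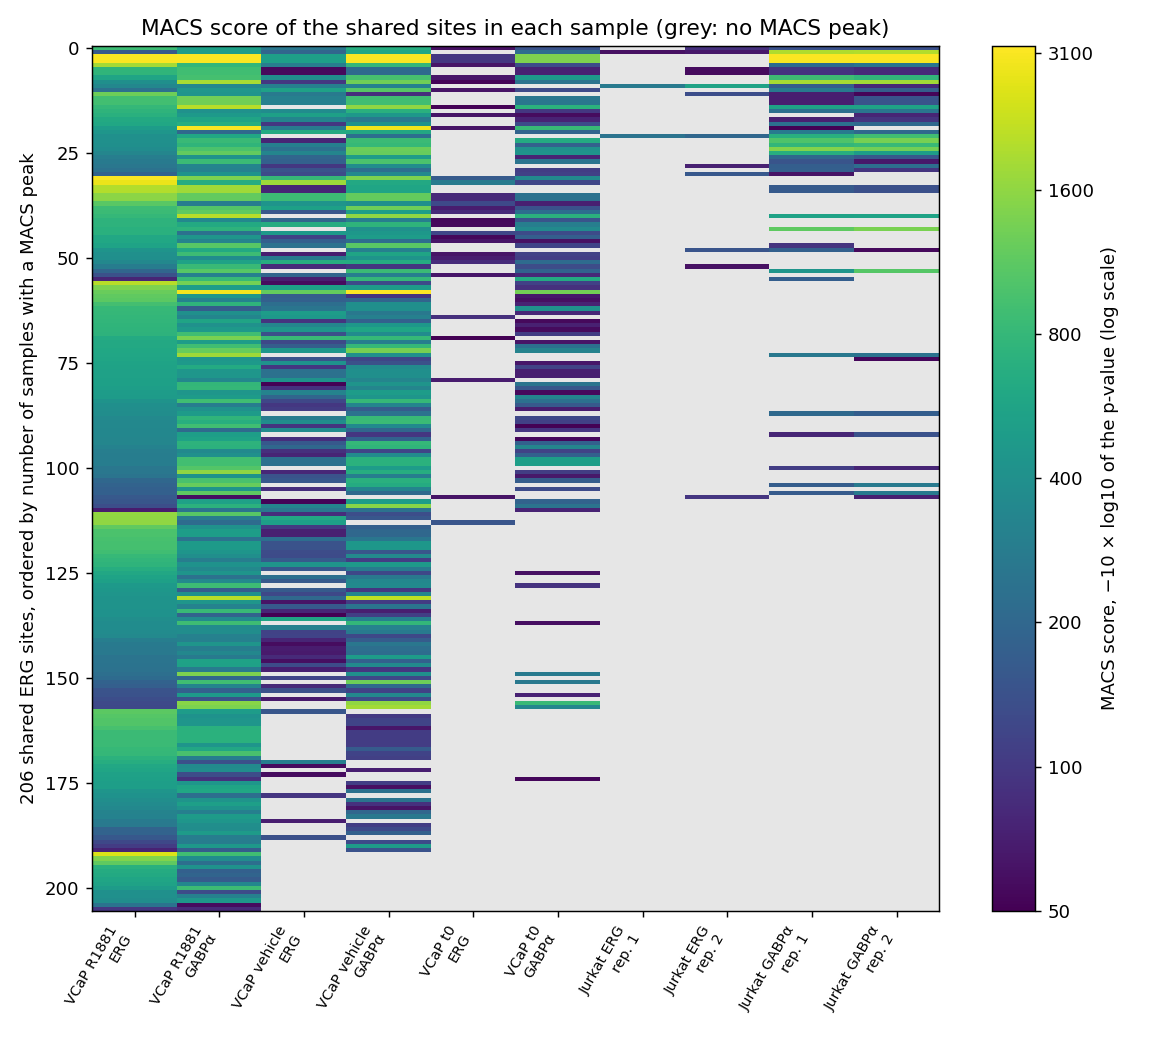
MACS scores (colour, log scale; grey where no MACS peak was called) of the 206 shared sites in each of the 10 samples, with rows ordered by the number of samples with a peak and then by ERG score with R1881. The vehicle columns are filled at 144 sites for ERG and 182 for GABPα, the t0 columns at 31 and 102, and the Jurkat ERG columns are nearly all grey, with 3 and 12 sites.

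In Jurkat cells ERG was rarely at shared sites. MACS peaks of either replicate were about as frequent there as at all ERG intervals. The stricter calls gave lower shares than over all ERG intervals, on 3 and 2 sites. An ERG MACS peak in either Jurkat replicate overlapped 12 sites, 5.83% (3.36 to 9.90%), against 5.79% of all ERG intervals. Replicate 1, whose MACS file was the smaller, gave 3 of them and replicate 2 all 12, so the 3 sites in both replicates (1.46%) stood against 3.63%. High confidence ERG peaks of either replicate overlapped 2 sites, 0.971% (0.267 to 3.47%), against 3.10%. Of the 12 sites, 11 also had a GABPα MACS peak in Jurkat cells, 5.34% of the shared sites, and over all ERG intervals 4.62% had both.

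The 3 shared sites with ERG in both Jurkat replicates had VCaP ERG scores with R1881 below the median of the shared sites, and GABPα scores on both sides of it. At chr13:27880750-27880902 the ERG scores in Jurkat were 276 and 553 and those in VCaP cells 344 with R1881 and 303 with vehicle, and GABPα was at 342 and 304 in VCaP cells and 169 and 80.0 in Jurkat cells. At chr2:206353661-206353906 ERG was at 245 and 200.4 in Jurkat cells and at 406 with R1881 only in VCaP cells, and GABPα at 592 with R1881, 227 with vehicle and 694 and 893 in Jurkat cells. At chr11:7555781-7555909 ERG was at 59.98 and 65.7 in Jurkat cells and at 161 and 197 in VCaP cells. GABPα there was at 502, 587 and 223 in VCaP cells and higher in Jurkat cells, at 1945 and 1968, on scores that are not scaled between samples. None of the 3 had an ERG peak at t0.

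GABPα in Jurkat cells was at 47 shared sites in MACS peaks of either replicate, 22.8% (17.6 to 29.0%), against 9.15% of all ERG intervals. The replicates were close, with 44 and 43 sites, and 40 sites (19.4%) had a peak in both, against 6.37%. High confidence GABPα peaks in Jurkat cells overlapped 23 sites, 11.2% (7.56 to 16.2%), against 3.99%. Among GABPα intervals the order was turned round, since 44 of the 202 shared with ERG (21.8%; 16.6 to 28.0%) had a Jurkat MACS peak, beside 59.7% of all GABPα intervals, and 22 (10.9%; 7.30 to 15.9%) a high confidence one, beside 55.2%. Within ranges of GABPα score the high confidence shares were 4.29 and 17.5% below 400, 6.17 and 35.7% from 400 to 800, and 19.0 and 62.4% from 800 to 1600, for shared and other intervals in that order. The Wilson intervals did not overlap in these ranges, and at 1600 or more they did (66.7 and 85.3%). This too is a description over sites, with no test.

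Shared sites that GABPα also held in Jurkat cells were stronger GABPα sites of VCaP cells, by GABPα score and calls. The 40 sites with GABPα in both Jurkat replicates had a median GABPα score with R1881 of 844 and the 159 sites with no Jurkat GABPα one of 437. High confidence GABPα with vehicle was at 82.5% (68.0 to 91.2%) of the former and 50.9% (43.2 to 58.6%) of the latter, and GABPα MACS peaks at t0 at 67.5% (52.0 to 79.9%) and 44.0% (36.5 to 51.8%). An ERG peak with vehicle was at 70.0% and 69.2%, and one at t0 at 8 of 40 sites (10.5 to 34.8%) and 20 of 159 (8.29 to 18.6%). The median ERG score was 439 and 514 with R1881, and 269 and 158 with vehicle where a peak was called, so its order differed between the treatments.

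Some shared sites had GABPα in every GABPα sample. MACS peaks were present in all 5 at 27 shared sites, 13.1% (9.17 to 18.4%), beside 1.79% of all ERG intervals and 43.8% of all GABPα intervals. One of the 5 is the R1881 sample that the rule used, so ERG intervals without a GABPα peak there could not qualify. GABPα was high confidence in all 5 GABPα samples at 11 shared sites, 5.34% (3.01 to 9.31%), and at 10 of the 202 GABPα intervals shared with ERG (4.95%), against 30.5% of all GABPα intervals. Beside the regions at chr1:2176616-2177672 and chr7:133414364-133414663, they included chr17:30374082-30374181, with GABPα at 836 with R1881, 847 with vehicle and 639 at t0 and at 1025 and 1364 in Jurkat cells, and ERG at 400.5 and 76.3 with R1881 and vehicle. At chr9:133263590-133263787 GABPα was at 938, 956, 468, 875 and 777 in the same order, and ERG at 567, 383 and 64.3 in VCaP cells. At chr5:67747241-67747309 GABPα was at 1174, 1208, 427, 676 and 505, and ERG at 339 and 332 with R1881 and vehicle. In these 3 regions GABPα scored slightly higher with vehicle than with R1881, while ERG scored higher with R1881.

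At the ends of the range, 25 shared sites (12.1%; 8.36 to 17.3%) had a MACS peak in all 6 VCaP samples, and no shared site had one in all 10 samples. The share over all ERG intervals was 1.48%, but the rule itself used the R1881 samples of both factors. The 1126 ERG intervals without a GABPα peak with R1881 could therefore not qualify, so the contrast is partly fixed by the rule. Of the 897 with a weaker GABPα peak, 8 (0.892%) had all 6. A peak in none of the 8 samples outside the rule was seen at 14 shared sites, 6.80% (4.09 to 11.1%), against 24.1% of all ERG intervals. Some of the 8 samples are of GABPα, for which the sites were chosen, so this contrast too follows in part from the rule. Among GABPα intervals the order was turned round, with 15 of the 202 shared with ERG (7.43%) beside 0.869% of all 5987. After chr12:120853984-120854263, given above, the strongest of the 14 shared sites by ERG score was chr6:111970262-111970597, with ERG at 1462 and GABPα at 378. It was followed by chr8:87131121-87131429 (1168 and 223), chr7:68699125-68699306 (695 and 416) and chr1:55225850-55226047 (649 and 179). These 5 were taken for their ERG score, and those of the other sites with no further peak ran lower, down to 97.2.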

How the data were processed

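ChIP-seq of ERG and GABPα in VCaP and Jurkat cells was analysed from the 30 peak files of 10 samples. As the labels and methods state, the authors aligned 36 bp reads to hg18 (NCBI build 36) with BWA 0.5.5, removed duplicates and reads with an alignment quality under 15, and called peaks per sample against input with MACS and SWEMBL; the MACS version is not given in the sources used here. The deposited score is the −log10 of the MACS p-value times 10. In 7 samples the high confidence intervals are SWEMBL intervals that overlap a MACS peak and carry its score. The ERG files with vehicle and at t0 hold whole MACS peaks, and that of ERG Jurkat replicate 1 mostly does; their last column has no stated meaning and was not used. Headers show that vehicle and R1881 samples of a target had the same input.

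Overlaps of at least 1 bp were counted in Python 3.11.15 (numpy 2.4.6, scipy 1.17.1), checked against bedtools 2.31.1 on simulated intervals. A site takes the highest score among overlapping MACS peaks. Regions named in the text were joined by ERG MACS peak and ranked, with up to 5 per list: ERG score, GABPα score, lower percentile, both factors with vehicle, ERG at t0, ERG in both Jurkat replicates, GABPα in all 5 samples and no other peak, plus 3 on each side of the rule. The members, lists and alternatives were chosen with earlier results of these data known, and score ranges were added after the data were seen. Sequence and gene annotation of hg18 were not used here.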

Additional observations from a re-analysis of the deposited data

How the results depend on the processing

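Of 95 alternative values for 12 results, 79 stayed within the interval of the reported value (for a share, Wilson; for a median, its own interval) or, for the count of sites, within 1.5 times of it, and 16 did not. The number of shared sites ranged from 181 to 210. With SWEMBL intervals in place of MACS peaks, ERG was at 20.4% of shared sites with vehicle (21.0% of all ERG intervals), 0% at t0 and 1.46% in Jurkat, and GABPα at 57.3% with vehicle, 17.0% at t0 and 12.1% in Jurkat. With MACS scores of at least 100, ERG was at 48.5, 2.43 and 2.43% of sites with vehicle, at t0 and in Jurkat, and GABPα at 82.5 and 33.5% with vehicle and at t0. Without sites that had a peak in all 6 VCaP samples, high confidence ERG with vehicle was at 16.6%, ERG at t0 at 3.31% and GABPα at t0 at 42.5%; this alternative removes sites by the peaks it counts. ERG in both Jurkat replicates was at 1.46% (3.63% of all ERG intervals), and leaving out a Jurkat replicate gave 1.46% (without replicate 2) to 5.83% (without replicate 1). The vehicle set in the SWEMBL layout, added after the data were seen, met 18.0% of shared sites in place of 20.4%.

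No paired analysis was possible because no result comes from a test: each VCaP group is 1 sample. Depth is unknown, so shares depend on how many peaks each sample gave.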
